A study of Mus musculus with 6 samples.

Results

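The hypoxia-inducible factors and the enzymes that sense oxygen for them were followed through 10 genes, chosen by symbol: the α subunits Hif1a, Epas1 and Hif3a, the partner subunits Arnt and Arnt2, the prolyl hydroxylases Egln1, Egln2 and Egln3, the asparaginyl hydroxylase Hif1an, and Vhl. All 10 were found among the 15803 genes of the table, and all 10 were among the 12155 genes that reached an average of 1 CPM (reads on a gene, scaled to a common library total) and were tested. RNA was taken from growth plate cartilage of E18.5 embryos, the avascular tissue of chondrocytes at which long bones lengthen. The genotype behind the 3 libraries labelled CKO was Col2a1-Cre;Hnrnpk fl/fl and that behind the 3 labelled WT was Hnrnpk fl/fl, so that both groups carried the loxP-flanked allele and only the CKO embryos carried Cre. The Col2a1 promoter drives Cre in chondrocytes and their precursors, and vessel, blood or muscle cells caught in the dissection would keep Hnrnpk, an RNA-binding protein. The comparison addresses how the HIF system stands at the RNA level when Hnrnpk is deleted in cartilage.

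A HIF is a dimer of an oxygen-labile α subunit and a stable partner, and it binds hypoxia response elements near genes of glycolysis, iron handling, angiogenesis and collagen modification. With oxygen, the Egln enzymes hydroxylate prolines of the α subunit, Vhl recognises the hydroxylated protein and its ubiquitin ligase marks it for the proteasome, while Hif1an hydroxylates an asparagine and thereby blocks the binding of coactivators. In the growth plate Hif1a is known as a factor chondrocytes need to survive in hypoxic cartilage. Because this control acts on protein and on enzyme activity, RNA levels of these genes are not a reading of HIF activity.

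The libraries held between 1153871 and 1454094 reads, so that 1 read was worth 0.688 to 0.867 CPM and the 10 genes together had only 514 reads in the WT and 507 in the CKO libraries. Hnrnpk itself stood at 842, 955 and 944 CPM in the libraries labelled WT and at 759, 950 and 780 CPM in those labelled CKO, which overlap (log2 fold change -0.14 ± 0.15 (SE), limma adjusted p = 0.622). The whole-gene values did not separate the labels, and the groups below are those of the labels. The study's loxP sites flank only part of the exons, while these values count reads over the whole gene. Whether this has a part in the overlap was not tested. By western blot and immunostaining the study reported loss of the protein in CKO cartilage at an earlier embryonic stage. Markers of chondrocytes, 14 collagen, matrix and Sox genes, summed to 17353 to 24711 CPM in the WT and 4837 to 6114 CPM in the CKO libraries, and 10 of the 14 fell. The summed levels also lay apart for macrophage markers (18.8 to 49.0 against 102 to 133 CPM) and epithelial markers (28.7 to 60.8 against 141 to 196 CPM), with 1 called gene in each list. The epithelial sum covers only 7 of 10 listed genes, of which 3 were tested, and Krt5, Krt14 and Cdh1 had no values. It is therefore no measure of epithelial cells. The part of these shifts in the values below was not tested. In bulk RNA, fewer cells of a type and less RNA per cell cannot be told apart, and since the labels do not say whether each library is a separate embryo, p-values measure the spread between these samples, which may be technical.

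None of the 10 genes differed past an adjusted p of 0.05. The count was 0 of 10 with limma, 0 of the 5 that passed the filter of edgeR's quasi-likelihood test, and 0 of the 7 for which DESeq2 gave an adjusted p, against 5.78% of all genes tested with limma and 3.16% of the 6687 genes whose mean CPM lay in the range of the 10. At an unadjusted p under 0.05 limma gave 2 of 10 (Hif3a and Hif1an), edgeR 2 (Hif1a and Hif1an) and DESeq2 1 (Hif3a), and with limma 21.3% of all genes lay there. The libraries of the genotypes did not overlap for 3 of the 10, Hif1a lower and Hif3a and Hif1an higher in CKO, against 27.7% of all genes tested, and against 22.3% of those 6687. The median log2 fold change of the 10 was -0.11, with 4 positive and 6 negative values, and that of all genes tested was 0.013.

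**Figure D1:**
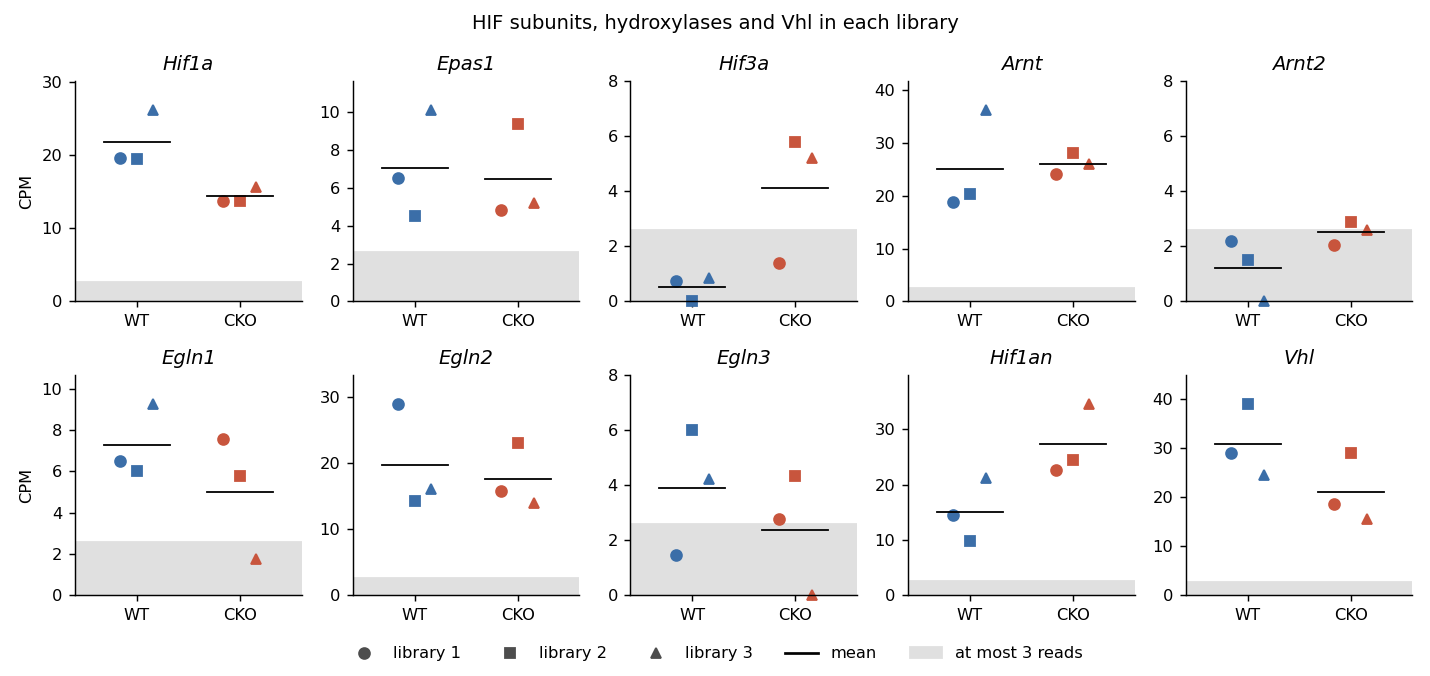
CPM of each of the 10 genes in each library, with WT in blue and CKO in red, 1 symbol per library, a line at the group mean and a grey band for 3 reads or fewer. The WT and CKO points are apart for Hif1a, Hif3a and Hif1an and overlap for the other 7, and both groups of Arnt2 and the WT points of Hif3a lie in or just above the band.

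Among the α subunits, Hif1a (ENSMUSG00000021109, chromosome 12, 73901375 to 73947530, plus strand, on GRCm38 as are the positions below) encodes the subunit of HIF-1. It stood at 19.6, 19.5 and 26.2 CPM in the WT libraries, from 27, 26 and 31 reads, and at 13.8, 13.7 and 15.6 CPM in the CKO libraries, from 20, 19 and 18 reads. Every CKO library was below every WT library, and 1 of the 3 WT libraries stood above the other 2. The means were 21.8 ± 3.84 and 14.4 ± 1.08 CPM (SD, n = 3), the log2 fold change was -0.56 ± 0.26 (SE, 95% interval -1.14 to 0.02), and limma's adjusted p was 0.253. The exact two-sided permutation test gave p = 0.1, the smallest value that 3 libraries against 3 can give. Over 13 alternative settings the log2 fold change stayed between -0.64 and -0.42, with adjusted p between 0.163 and 0.509. As a fold the interval runs from 0.455 to 1.02. The annotation places 148 bases of Hif1a exons (2.51%) under Gm49321 on the same strand, a gene with 6 WT and 3 CKO reads, and 330 bases (5.60%) opposite the antisense gene Gm15283.

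Epas1 (ENSMUSG00000024140, chromosome 17, 86753700 to 86833410, plus strand), which encodes HIF-2α, is known from endothelial cells and from chondrocytes that approach hypertrophy. Its values were 6.52, 4.5 and 10.1 CPM in WT and 4.81, 9.38 and 5.2 CPM in CKO, from 27 and 26 reads in all, and the groups overlapped. The log2 fold change was -0.10 ± 0.42 (95% interval -1.02 to 0.82, limma adjusted p = 0.920), and its sign turned when WT 3, CKO 1 or CKO 3 was left out. Endothelial markers were near the floor in both genotypes, with sums of 13 to 22 CPM in WT and 12.4 to 26.0 CPM in CKO over the 11 of 14 that the table lists.

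Hif3a (ENSMUSG00000004328, chromosome 7, 17031507 to 17062427, minus strand) encodes a further α subunit, of which some isoforms restrain the other HIFs. It had 1, 0 and 1 reads in the WT libraries (0.725, 0 and 0.845 CPM) and 2, 8 and 6 reads in the CKO libraries (1.38, 5.77 and 5.2 CPM). Its mean was 0.523 CPM in WT and 4.12 CPM in CKO, so it passed the filter of 1 CPM only through the CKO libraries. The test values given for it are therefore a description. The groups did not overlap, but all 3 WT libraries and CKO 1 held no more than 3 reads. The log2 fold change of 1.66 ± 0.56 (95% interval 0.42 to 2.89, exact permutation p = 0.1, limma p = 0.0135 and adjusted p = 0.116) rests on these few reads and on the pseudocount. The 16 CKO against 2 WT reads, set against all reads, gave a ratio of 7.80 with an exact 95% interval of 1.83 to 70.0, which covers counting error only. Hif3a was the 1 gene of the 10 past the criterion in the study's methods, an unadjusted p under 0.05 together with a log2 fold change beyond 1 in either direction, which with limma 10.4% of all genes tested met, 5.3% higher and 5.1% lower. Hif3a no longer met it when WT 2, CKO 2 or CKO 3 was left out, and was not tested at a minimum mean of 10 CPM or with edgeR's filter, while Hif1an met it as well without WT 3.

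Arnt (ENSMUSG00000015522, chromosome 3, 95434388 to 95497240, plus strand), the common partner of the α subunits, stood at 18.8, 20.3 and 36.3 CPM in WT and 24.1, 28.1 and 26.0 CPM in CKO. The CKO values lay inside the WT range, which WT 3 widened, and the difference was 0.11 ± 0.29 on the log2 scale (95% interval -0.53 to 0.74, limma adjusted p = 0.868). Its sign turned without WT 1 or WT 2. Arnt2 (ENSMUSG00000015709, chromosome 7, 84246278 to 84410176, minus strand), the partner best known from neurons, had 3, 2 and 0 reads in WT and 3, 4 and 3 reads in CKO, so that no fold change can be read from it beyond an interval of -0.39 to 2.01 on the log2 scale (limma adjusted p = 0.427). Neural markers summed to 4.22 to 5.80 CPM in WT and 3.47 to 10.1 CPM in CKO, over the 6 of 10 that the table lists.

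The 3 prolyl hydroxylases did not separate the genotypes. Egln1 (ENSMUSG00000031987, chromosome 8, 124908587 to 124949324, minus strand), which encodes Phd2, the main HIF prolyl hydroxylase in normoxia, stood at 6.52, 6.0 and 9.29 CPM in WT and 7.56, 5.77 and 1.73 CPM in CKO. The low value of CKO 3 came from 2 reads, and the difference of -0.59 ± 0.48 (95% interval -1.65 to 0.47, limma adjusted p = 0.523) was -0.10 without that library. Egln2 (ENSMUSG00000058709, chromosome 7, 27158658 to 27166802, minus strand), which encodes Phd1, stood at 29.0, 14.3 and 16.1 CPM in WT and 15.8, 23.1 and 13.9 CPM in CKO. WT 1 stood above the other 5 libraries, and the difference of -0.12 ± 0.33 (95% interval -0.86 to 0.62, limma adjusted p = 0.869) changed sign without WT 1 or CKO 3.

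Egln3 (ENSMUSG00000035105, chromosome 12, 54178981 to 54203860, minus strand) encodes Phd3 and, like Egln1, is known as a gene that HIF induces. It had 2, 8 and 5 reads in WT and 4, 6 and 0 reads in CKO, and the groups overlapped. The difference was -0.72 ± 0.67 (95% interval -2.22 to 0.77, limma adjusted p = 0.589). As folds, the intervals of Egln1, Egln2 and Egln3 run from 0.318 to 1.38, from 0.549 to 1.53 and from 0.215 to 1.71. Differences inside these intervals remain possible. Their width holds the spread between libraries as well as the counting error of few reads.

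Hif1an (ENSMUSG00000036450, chromosome 19, 44562850 to 44576274, plus strand), which encodes the asparaginyl hydroxylase Fih, was higher in every CKO library than in any WT library. It stood at 14.5, 9.76 and 21.1 CPM in WT, from 20, 13 and 25 reads, and at 22.7, 24.5 and 34.7 CPM in CKO, from 33, 34 and 40 reads. The highest WT and the lowest CKO value lay close together. The means were 15.1 ± 5.71 and 27.3 ± 6.45 CPM (SD, n = 3), and the log2 fold change was 0.85 ± 0.32 (95% interval 0.14 to 1.56). The exact permutation test gave p = 0.1, limma p = 0.0240 and an adjusted p of 0.16, and edgeR an adjusted p of 0.16, while the range over 13 alternatives was 0.59 to 1.11 on the log2 scale with adjusted p from 0.0868 to 0.4. Vhl (ENSMUSG00000033933, chromosome 6, 113623959 to 113631633, plus strand), the substrate receptor of the ligase, stood at 29.0, 39.0 and 24.5 CPM in WT and 18.6, 28.9 and 15.6 CPM in CKO. The groups overlapped only through CKO 2, which lay above WT 3. The log2 fold change was -0.55 ± 0.30 (95% interval -1.21 to 0.10, limma adjusted p = 0.315), and without CKO 2 it was -0.80 with an adjusted p of 0.0912.

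**Figure D2:**
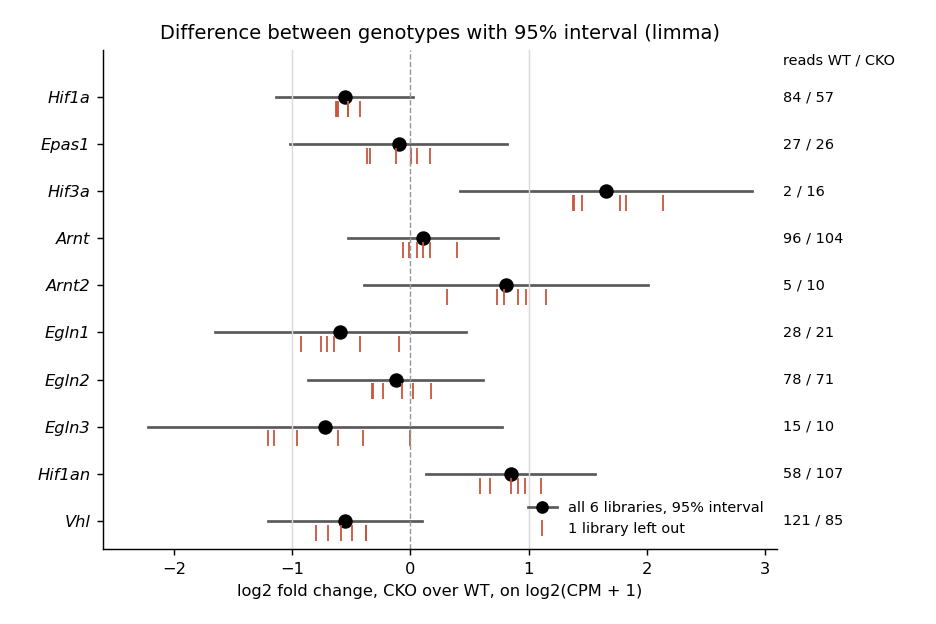
Log2 fold change of each gene, CKO over WT, on log2(CPM + 1), with limma's 95% interval as a bar, the values with 1 library left out as red ticks and the summed reads of each genotype at the right. The intervals of Hif3a and Hif1an lie above 0, the other 8 hold 0, and no gene passed the adjusted threshold.

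The reads of Hif1an and Hif1a were set side by side within each library, a pair chosen after the values were seen. For each read of Hif1a there were 0.741, 0.500 and 0.806 reads of Hif1an in the WT libraries and 1.65, 1.79 and 2.22 in the CKO libraries. The order of the pair was therefore reversed between genotypes in all 6 libraries, which is a description and was given no test. Hif1a was lower and Hif1an higher in every CKO library, so the separation of their ratio follows from the choice of the pair. Shares within gene groups were likewise chosen after the values were seen. The share of Hif1a in the summed per-length level of the α subunits was 72.2%, 80.4% and 69.6% in WT and 68.6%, 47.8% and 60.8% in CKO. Hif1a was lower and Hif3a higher in every CKO library, so the lower share in CKO is in part built in by this choice. The share of Egln2 among the prolyl hydroxylases was 81.4%, 56.5% and 57.9% in WT and 64.3%, 71.8% and 91.1% in CKO.

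Levels were compared between genes per kilobase of merged exons. Vhl was the most abundant in WT, at 10.3 ± 2.48 CPM per kilobase (SD, n = 3), followed by Egln2 at 7.06 ± 2.87, Hif1a at 3.69 ± 0.65, Arnt at 3.14 ± 1.21, Hif1an at 2.29 ± 0.86, Egln1 at 2.02 ± 0.49, Egln3 at 1.46 ± 0.86 and Epas1 at 1.26 ± 0.51. Arnt2 and Hif3a were the lowest at 0.16 ± 0.14 and 0.078 ± 0.07. Among neighbours in this order the WT libraries were separated only between Egln2 and Hif1a and between Epas1 and Arnt2. Vhl stood at percentile 71.9 and Hif1a at percentile 54.8 of the 11630 tested genes with a length, and Hif3a at 0.808. Genes below the filter of 1 CPM are not in this ranking. In CKO Hif1an came next after Vhl and Egln2, at 4.13 ± 0.98, above Arnt at 3.26 ± 0.25 and Hif1a at 2.43 ± 0.18, and there the libraries of Arnt and Hif1a and those of Hif1a and Egln1 were separated. With the longest transcript as the length, the WT means of Arnt and Hif1a were 5.81 and 4.61, and their order was the opposite. In CKO that length gave 8.35 for Egln2, 7.53 for Vhl, 6.03 for Arnt and 4.41 for Hif1an, so that Egln2 lay above Vhl and Arnt above Hif1an.

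**Figure D3:**
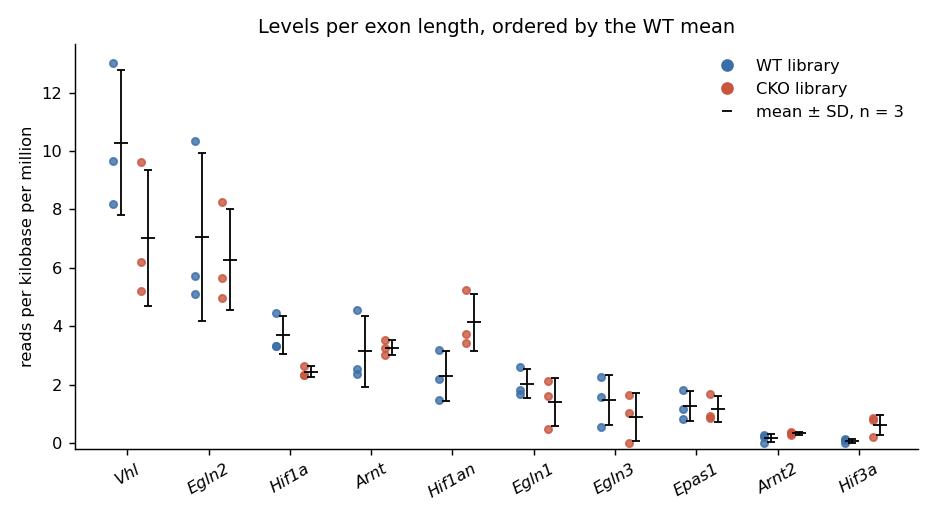
CPM per kilobase of merged exons for each gene, in the order of the WT mean, with points for libraries (WT blue, CKO red) and black marks for the mean ± SD (n = 3). Vhl and Egln2 lie highest, Arnt2 and Hif3a lie near 0 in both genotypes, and the CKO points of Hif1an lie above those of WT.

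The sequences before the start of genes were searched for the core word of HIF binding sites. These sequences are given here for the 3 genes whose genotypes did not overlap and for Egln1 and Egln3, which are known as HIF targets. They are the 250 bases before the RefSeq start on GRCm38.p6, on the strand of the gene, with the core of the hypoxia response element (ACGTG or GCGTG, on either strand) in capitals.
Hif1a, chr12:73907617-73907866, plus strand: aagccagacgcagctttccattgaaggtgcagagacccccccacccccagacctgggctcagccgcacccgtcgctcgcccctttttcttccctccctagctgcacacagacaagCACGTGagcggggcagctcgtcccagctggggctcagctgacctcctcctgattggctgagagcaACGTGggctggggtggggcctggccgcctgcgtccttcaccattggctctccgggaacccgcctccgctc
Hif3a, chr7:17062428-17062677, minus strand: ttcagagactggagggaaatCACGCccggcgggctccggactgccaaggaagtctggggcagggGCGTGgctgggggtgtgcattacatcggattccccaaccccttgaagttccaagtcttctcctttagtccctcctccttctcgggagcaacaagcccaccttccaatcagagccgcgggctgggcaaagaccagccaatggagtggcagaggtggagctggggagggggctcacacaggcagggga
Hif1an, chr19:44562604-44562853, plus strand: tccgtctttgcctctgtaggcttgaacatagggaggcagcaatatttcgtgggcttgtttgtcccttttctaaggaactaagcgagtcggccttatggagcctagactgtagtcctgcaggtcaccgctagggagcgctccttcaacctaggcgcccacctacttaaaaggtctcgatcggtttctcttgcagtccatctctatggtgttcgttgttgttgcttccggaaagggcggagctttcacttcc
Egln1, chr8:124949255-124949504, minus strand: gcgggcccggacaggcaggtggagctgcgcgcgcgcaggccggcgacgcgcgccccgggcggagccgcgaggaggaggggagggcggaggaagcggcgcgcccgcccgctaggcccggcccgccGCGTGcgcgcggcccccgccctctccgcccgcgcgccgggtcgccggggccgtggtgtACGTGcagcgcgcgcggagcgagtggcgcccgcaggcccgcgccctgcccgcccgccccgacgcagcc
Egln3, chr12:54203875-54204124, minus strand: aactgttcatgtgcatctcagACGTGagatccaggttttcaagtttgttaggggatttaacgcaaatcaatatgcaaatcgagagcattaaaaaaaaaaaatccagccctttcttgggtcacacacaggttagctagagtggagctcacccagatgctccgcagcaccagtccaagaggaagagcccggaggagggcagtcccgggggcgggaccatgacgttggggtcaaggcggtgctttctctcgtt
The core was held by 6 of the 9 genes with a RefSeq promoter and by 38.6% of all 32851 promoters of this length. Hif1a held 3 matches of ACGTG, at 135, 134 and 70 bases before the start, of which the first pair are the strands of 1 overlapping palindrome, and its RefSeq start lies inside the gene as GENCODE draws it. Hif3a held GCGTG at 230 and 186 bases, Egln1 held matches at 126 and 68 bases, and Egln3 held ACGTG at 229 bases. Arnt and Egln2 held the core as well, while Hif1an, Vhl and Arnt2 held none in these windows. So short a word occurs often, and a match or its absence says nothing about binding. Of the 3 genes without overlap, the one lower in CKO and one of the pair higher in CKO held the core.

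Calls were found among the genes that HIFs are known to induce. Of 56 listed HIF target genes 52 were tested, and 5 rose and 4 fell in the CKO libraries at limma's adjusted p under 0.05, together 17.3%, beside 3.18% of all genes that rose and 2.6% that fell. The median log2 fold change of the 52 was 0.16 and that of all genes tested 0.013, so that calls went both ways around a small median. Calls were commoner among genes with higher values: at a minimum mean of 10 CPM, 384 genes rose and 295 fell of 6827 tested. In that setting 5 targets rose and 3 fell. No share matched to the levels of the targets, or of the lists below, was computed, so the shares of all genes overstate the contrast where a list holds genes with high values. The list was compiled with earlier results of these data known, and these counts are a description.

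Of the 5 that rose, Hmox1, Tfrc and Trf take part in haem and iron handling. Hmox1, the haem oxygenase that breaks down haem, stood at 97.8, 113 and 65.0 CPM in WT and 415, 491 and 376 CPM in CKO (log2 fold change 2.23 ± 0.22, limma adjusted p = 6.5e-04). The transferrin receptor gene Tfrc rose from 15.1 ± 3.9 to 38.2 ± 2.7 CPM (1.31 ± 0.26, limma adjusted p = 0.0170). Trf, which encodes transferrin, rose from 25.4 ± 4.0 to 61.3 ± 20.9 CPM (1.19 ± 0.29, limma adjusted p = 0.0404). The other 2 that rose encode a secreted and a nuclear factor. Angptl4, an inhibitor of lipoprotein lipase, stood at 21.7, 20.3 and 29.6 CPM in WT and 95.6, 120 and 78.9 CPM in CKO (1.99 ± 0.23, limma adjusted p = 0.00183). Rbpj, the DNA-binding partner of Notch, rose from 35.9 ± 2.9 to 74.1 ± 13.6 CPM (1.01 ± 0.21, limma adjusted p = 0.0223).

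The 4 that fell were Plod1 and Plod2, which modify collagen, and Aldoc and Pdk1, which act in glucose metabolism. Plod1, a lysyl hydroxylase of collagen, stood at 286, 294 and 347 CPM in WT and 99.7, 132 and 115 CPM in CKO (log2 fold change -1.41 ± 0.17, limma adjusted p = 0.00196). Plod2, its homologue, stood at 428, 336 and 688 CPM in WT and 175, 208 and 179 CPM in CKO (-1.30 ± 0.24, limma adjusted p = 0.0126). Both are enzymes of cells that secrete collagen, and they stood lower in the same libraries as the chondrocyte markers, whose part in this was not tested. Aldoc, an aldolase of glycolysis, fell from 58.2 ± 26.3 to 10.4 ± 1.5 CPM (-2.26 ± 0.37, limma adjusted p = 0.00752). Pdk1, the kinase that restrains entry of pyruvate into the mitochondrion, had 40 reads in WT and 6 in CKO (-2.28 ± 0.45, limma adjusted p = 0.0185). Other genes of glycolysis in the list lay on both sides. Pkm, Eno1, Ldha and Tpi1, chosen after their values were seen, were higher in every CKO than in any WT library without passing the threshold. Their log2 fold changes were 0.74, 0.39, 0.37 and 0.20 (limma adjusted p = 0.0802, 0.197, 0.204 and 0.445). Pfkfb3, chosen likewise, was lower in every CKO library (-0.68, limma adjusted p = 0.290). For Aldoa, Pgk1, Gpi1, Pfkl, Pfkp and Hk2 the libraries of the genotypes overlapped. Of the 52 targets tested, called genes included, 9 were higher without overlap and 9 lower. Among all genes tested these shares were 14.5% and 13.2%, so the named genes are a description. Of the 9 calls, those of Hmox1, Angptl4 and Plod1 were kept in all alternatives that tested them, while the call was lost in 2 of 13 for Aldoc, 3 of 13 for Plod2, 4 of 13 for Tfrc, 5 of 13 for Rbpj, 5 of 12 for Pdk1 and 6 of 13 for Trf. The counts of targets that rose and fell were 2 and 1 without WT 1, 2 and 2 without WT 2, CKO 1 or CKO 3, 4 and 5 without WT 3, and 7 and 6 without CKO 2.

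**Figure D4:**
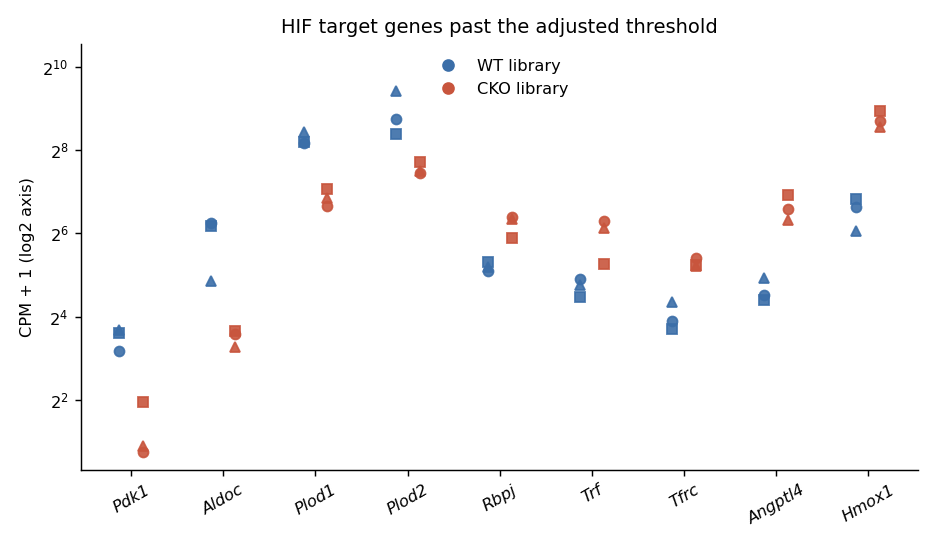
CPM + 1 on a log2 axis for the 9 HIF target genes past limma's adjusted threshold, with WT in blue and CKO in red and a symbol for each library, ordered by the log2 fold change. The 4 genes at the left are lower and the 5 at the right higher in all CKO libraries than in any WT library.

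The ligase, its cofactors and related oxygen-using enzymes held 4 further calls. Of 20 tested genes of the VHL ligase and the HIF cofactors, 2 rose and 1 fell (15%, beside 5.78% of all genes tested, median log2 fold change 0.19). Hsp90aa1, a chaperone that holds Hif1a protein, rose from 77.5 ± 9.8 to 185.8 ± 47.3 CPM (1.23 ± 0.21, limma adjusted p = 0.00931), and Cops5, a signalosome subunit, rose from 108.8 ± 6.5 to 170.1 ± 10.6 CPM (0.64 ± 0.16, limma adjusted p = 0.0408), a call lost in 8 of 13 alternatives. Os9, an endoplasmic reticulum lectin, fell from 119.7 ± 11.4 to 60.3 ± 13 CPM (-1.0 ± 0.20, limma adjusted p = 0.0215). The count that rose was 0 without WT 1 or WT 2, 1 without WT 3, CKO 1 or CKO 3, and 6 without CKO 2, and Os9 lost its call in 4 of 13 alternatives. Of 26 tested genes of other dioxygenases that use oxygen and 2-oxoglutarate, 1 passed the threshold (3.85%, below the 5.78% of all genes tested, median -0.20). This was Hspbap1, which rose from 13.1 ± 4.3 to 31.0 ± 5.5 CPM (1.21 ± 0.29, limma adjusted p = 0.0398), and the call was lost in 6 of 13 alternatives.

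**Figure D5:**
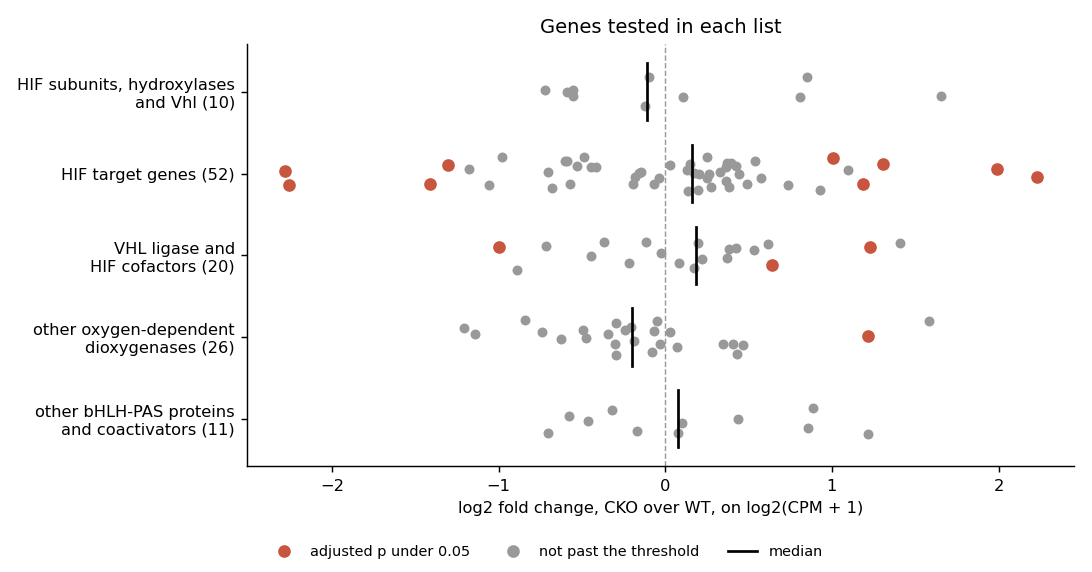
Log2 fold change, CKO over WT, on log2(CPM + 1), of each tested gene of the 10 oxygen-sensing genes and of 4 pathway lists, with the number tested in brackets, red for an adjusted p under 0.05 and a black bar at the median. Red points lie on both sides of 0 in the HIF target list and none lies among the 10 genes or the bHLH-PAS list.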

How the data were processed

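RNA of growth plate cartilage was sequenced for 3 WT and 3 CKO samples, 6 libraries in all, prepared with a stranded mRNA kit. The deposited table gives CPM, made by the authors, per gene and sample. The submitters' processing notes name cutadapt 2.5, HISAT2 and featureCounts 1.6.3; the genome build and annotation are not given in the sources used here. All values (100%, tolerance 0.001 reads) were whole multiples of 1 read, so reads were recovered. A gene at 3 reads or fewer was taken as at the floor, and floors and read-ratio intervals cover counting error only.

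In R 4.3.3, limma 3.58.1 was fitted to log2(CPM + 1) with a mean-variance trend for the 12155 genes averaging 1 CPM or more, with Benjamini-Hochberg adjustment over these genes. The pseudocount shrinks fold changes of genes with low values. Adjusted p-values under 0.05 were called, as 387 higher and 316 lower genes. On recovered reads edgeR 4.0.16 (quasi-likelihood, 7704 genes) called 374 and 363, and DESeq2 1.42.0 (15803 genes) called 344 and 305. DESeq2 gave no adjusted p for Hif3a, Arnt2 and Egln3. Other alternatives were a pseudocount of 0.1, no filter, a minimum mean of 10 CPM, TMM factors, a replicate block, and each library left out. The script was tested on simulated data.

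Positions and lengths came from GENCODE M21 on GRCm38, in which 15212 of 15803 identifiers were found, and promoters from RefSeq (9 of 10 genes). Ero1a was matched by an older symbol. No near-identical copy of the 10 genes was found with BLAST 2.17.0 at 90% identity over 300 bp. Named were all 10 genes, Hnrnpk, called genes of each list (at most 10 per direction), otherwise the 3 with the smallest p, and the 3 genes most like the member with the smallest p. One listed HIF target was dropped from its list, figures and counts and is not reported here. Members and lists were chosen with earlier results of these data known.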

Additional observations from a re-analysis of the deposited data

How the results depend on the processing

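Of 117 refits of the 10 oxygen-sensing genes that gave an adjusted p, 110 kept the direction and the side of the threshold and 7 turned the direction, and 3 more, with DESeq2, gave none and kept the direction. The log2 fold change of Epas1 (-0.36 to 0.16 with 1 library left out) was 0.16 without WT 3, 0.055 without CKO 1 and 0.0082 without CKO 3, that of Arnt (-0.060 to 0.40) was -0.060 without WT 1 and -0.010 without WT 2, and that of Egln2 (-0.33 to 0.17) was 0.17 without WT 1 and 0.021 without CKO 3. No setting called any of the 10, with 0 to 0 calls when 1 library was left out. The criterion of the study's methods took 0 of them at a minimum of 10 CPM and 0 with edgeR, and 0 to 2 with 1 library left out. Samples with the same replicate number did not deviate together (correlations 0.073, -0.208 and -0.155), so the numbers were not taken to pair them, and the replicate block gave 225 higher and 160 lower genes. Of the VHL ligase list 1 gene rose under the block, TMM factors and DESeq2, and of the dioxygenases 0 rose under the block and DESeq2. With 1 library left out, 123 to 692 genes rose and 79 to 606 fell in all, 2 to 7 and 1 to 6 HIF targets, 0 to 6 and 0 to 1 of the VHL ligase list, 0 to 1 and 0 to 1 of the dioxygenases, and 0 to 0 of the bHLH-PAS list in either direction. All lists held 3 to 22 calls then, with 3 without WT 1 and 22 without CKO 2, and 13 with all libraries. The largest count of all genes, 692 and 606, was also reached without CKO 2. The cause was not tested. Of 168 refits of the 13 called list genes 123 kept the call and 45 lost it. With the longest transcript as length the WT means per kilobase were 4.61 for Hif1a and 5.81 for Arnt. Depth limits the result: Hif3a, Arnt2 and Egln3 rest on 18, 15 and 25 reads in all 6 libraries.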

Other observations

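Other bHLH-PAS proteins and their coactivators, the family to which the HIF subunits belong, gave no call with limma (0 of 11 tested, beside 5.78% of all genes tested, median log2 fold change 0.075). With so few genes, a count of 0 cannot be told apart from that share. The 3 with the smallest p were Ahr, the aryl hydrocarbon receptor, with 1 WT and 8 CKO reads (limma adjusted p = 0.235), Ahrr, its repressor, with 4 and 11 reads (limma adjusted p = 0.321), and Arntl2, a clock protein, with 2 and 6 reads (limma adjusted p = 0.380). Ahr and Arntl2 passed the filter of 1 CPM only through the CKO libraries, so their values are a description.

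The genes whose profile over the 6 libraries was most like that of Hif3a, among genes averaging 10 CPM or more, were Lbhd1 (Pearson's r = 0.992), Idh3g, a subunit of isocitrate dehydrogenase (r = 0.990), and Elp6, an Elongator subunit (r = 0.982). Their log2 fold changes were 0.25, 0.18 and 0.86, none past the threshold (limma adjusted p = 0.395, 0.571 and 0.0802). They are the highest values of a search over 6827 genes with 6 libraries. The points share their library totals and the profile of Hif3a rests on 18 reads, so that these values are a description.

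Hnrnpk protein is known to bind C-rich RNA. The words TCCCA and TCCCT occurred 3.39 times per kilobase in the longest transcript of Hif1a, 4.52 times in that of Hif1an, 5.55 times in that of Arnt and 1.11 times in that of Egln1, against a median of 2.82 over 15194 genes. As percentiles of these genes, Arnt stood at 95, Arnt2 at 91.4, Hif1an at 86.9, Hif3a at 85.1 and Egln3 at 81.7. Vhl stood at 71.2, Epas1 at 67.8, Hif1a at 66.5, Egln2 at 11.4 and Egln1 at 6.44. So short a word occurs often, and its count says nothing about binding.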
